A study of Homo sapiens with 20 samples.

Results

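CTCF sites bound in LNCaP cells but not in IMR90 cells numbered 5880 of 32381 LNCaP control sites. They were chosen by the CTCF peak lists of control cells, and their number depended on those lists: it was 14541 without LNCaP control replicate 1, 8836 without replicate 2 and 1862 with all lists cut to equal length. Peaks of the 2 LNCaP control siRNA libraries on chromosomes 1 to 22 were merged where they overlapped by at least 1 bp, a site was kept when both libraries had a peak, and a site was called LNCaP-only when none of 4 IMR90 control lists had an overlapping peak. LNCaP is a prostate cancer cell line of epithelial origin and IMR90 is a lung fibroblast line, with 1 line for each cell type, so tissue, cancer state and cell line cannot be told apart. LNCaP cells were transfected with 20 nM control siRNA or 20 nM CTCF siRNA and profiled 144 h later by ChIP-seq for CTCF, H3K4me3 and H3K27ac. IMR90 cells received the same doses for the same time and were profiled for CTCF only. This was done by standard ChIP-seq and by a low-cell version of it. Per the study's methods, IMR90 transfection used its own reagent, and LNCaP cells were split and transfected again within the 144 h. Such differences of procedure cannot be told apart from the cell line. Each of these 10 groups had 2 libraries, 20 in all. The siRNA lowers CTCF and does not delete it, and a site without a peak in a list may still bind CTCF below the calling threshold.

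CTCF is a zinc finger protein that binds a long DNA consensus and, with cohesin, anchors chromatin loops and insulates neighbouring domains. Most of its sites are shared between cell types, and a minority differ. Methylation of the CG dinucleotides within the consensus is known to weaken binding at some sites.

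The sequences below come from strong LNCaP-only sites and are shown because they carry the protein's consensus although no IMR90 control list has a peak there. Each is 61 bases of the hg19 genome, written 5′ to 3′ on the strand of the consensus, and the capitals mark the best match to the 14-base CTCF consensus. The first 2 lie in the immunoglobulin heavy chain variable region, and the third at a related variable segment elsewhere. The next 3 are the intron of ADARB2, the intron of TTC34 and an intergenic site, and the last 2 lie in introns of LINC01287 and RBFOX1. The first 3 and the last 2 kept a peak in each CTCF siRNA library.
chr14:107042264-107042324 (minus): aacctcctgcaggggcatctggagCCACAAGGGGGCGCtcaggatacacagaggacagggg
chr14:107280920-107280980 (minus): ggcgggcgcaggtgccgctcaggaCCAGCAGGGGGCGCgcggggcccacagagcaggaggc
chr15:22467160-22467220 (minus): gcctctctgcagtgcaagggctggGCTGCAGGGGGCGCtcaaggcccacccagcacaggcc
chr10:1463216-1463276 (plus): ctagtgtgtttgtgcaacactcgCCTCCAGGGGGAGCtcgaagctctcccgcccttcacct
chr1:2703342-2703402 (minus): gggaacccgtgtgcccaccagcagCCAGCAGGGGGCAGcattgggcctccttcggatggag
chr21:21816044-21816104 (minus): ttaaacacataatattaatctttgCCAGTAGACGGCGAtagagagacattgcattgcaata
chr7:153078800-153078860 (plus): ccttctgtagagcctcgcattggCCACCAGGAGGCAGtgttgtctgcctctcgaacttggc
chr16:5540736-5540796 (minus): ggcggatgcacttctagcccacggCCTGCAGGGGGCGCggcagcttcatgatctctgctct

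Across the lists, LNCaP control CTCF peaks numbered 36888 and 44853, and LNCaP CTCF siRNA peaks 3652 and 7549. The IMR90 control lists held 34548 and 35661 peaks with the standard protocol and 19576 and 18545 with the low-cell protocol. These lengths differ between replicates and protocols, and the lists give no read counts per peak. Per the study's methods, LNCaP CTCF siRNA replicate 1 was sequenced less deeply than replicate 2 and than the LNCaP control CTCF libraries. Starts of all 14 prostate luminal and androgen response genes and of 11 of 12 epithelial genes lay in an H3K4me3 region of both LNCaP control libraries, against 5 of 14 fibroblast genes. KRT19 was the epithelial gene without one.

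LNCaP-only sites were weak. The fold enrichment of a peak is its signal over local background, and here it is the mean of the 2 control libraries. It was chosen together with the sites, since weak sites are missed more often in another list, so its values are a description. The median was 7.81 for LNCaP-only sites, with quartiles of 6.20 and 10.8 and a range of 1.52 to 39.5. Sites with a peak in 1, 2, 3 and 4 IMR90 control lists had medians of 8.30, 10.2, 12.6 and 18.1. The 2266, 6271, 3485 and 14479 sites behind these medians leave LNCaP-only sites at 18.2% of all LNCaP control sites. When all sites were divided into 5 equal bins by fold enrichment, LNCaP-only sites made up 43.2% of the weakest bin and 2.32% of the strongest, which held 150 of them.

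**Figure D1:**
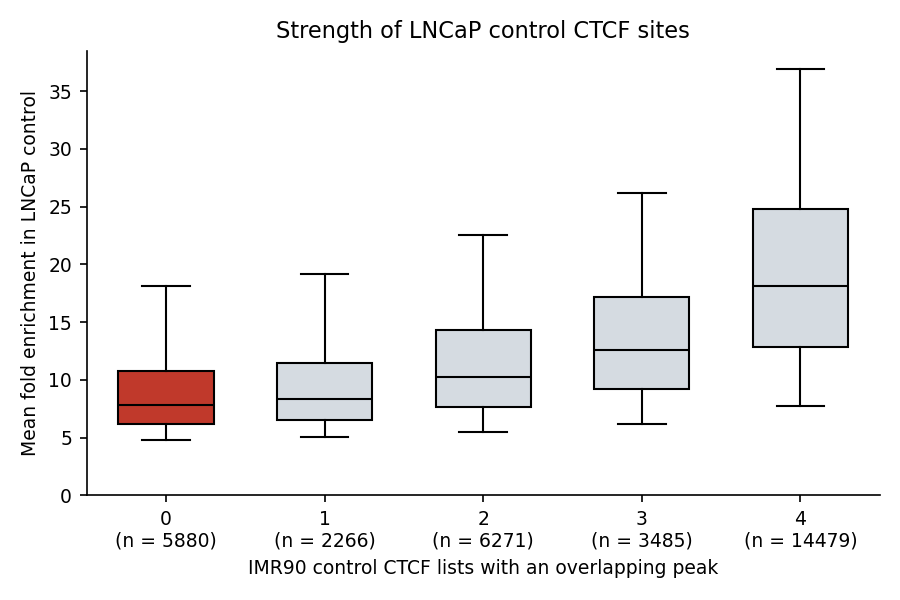
Mean fold enrichment of LNCaP control CTCF sites, grouped by the number of IMR90 control lists with an overlapping peak. Boxes give the quartiles, lines the medians and whiskers the 5th and 95th percentiles. The LNCaP-only box (0 lists) is the lowest, with a median of 7.81, and the 4-list box the highest, with 18.1.

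Since the rule left out sites that overlapped an IMR90 control peak, distances to such peaks are a description, with no comparison sites. The nearest IMR90 control peak lay at a median of 30.3 kb, and 109 sites (1.85%) had one within 500 bp. Just inside the rule, the closest sites lay 12, 19 and 30 bp from an IMR90 peak, with mean fold enrichments of 7.77, 11.7 and 7.82. Just outside it, the strongest sites with a peak in a single IMR90 control list had 47.3, 45.7 and 39.7. The IMR90 CTCF siRNA lists were not used by the rule, but they come from the same cell line as the control lists and are shorter. They held 18597 and 17947 peaks with the standard protocol and 4978 and 1921 with the low-cell protocol. Low shares at LNCaP-only sites there follow at least in part from the selection and are a description. Of LNCaP-only sites, 0.408% and 0.476% had a peak in the standard IMR90 siRNA libraries and 0.0850% and 0.0340% in the low-cell ones. Over all LNCaP control sites, 57.4% had a peak in at least 1 of those 4 libraries, against 0.867% of LNCaP-only sites.

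Most of the 10 strongest LNCaP-only sites lay farther from a protein-coding transcript start than the LNCaP-only median of 42757 bp. Immunoglobulin V segments were not counted among these starts. A site at chr14:107041823-107042538, in no gene, had fold enrichments of 30.8 and 48.3 in the 2 control libraries. It lay 42 bp from IGHV3-52, an annotated V segment of the immunoglobulin heavy chain variable region. Of the 128 V segments annotated in that region, 81 are pseudogenes. A site in an intron of COL22A1, a collagen gene, at chr8:139712510-139713058 had 35.0 and 42.3. Next came an intergenic site at chr21:21815803-21816252, 555 kb from the start of NCAM2, which encodes a neural adhesion molecule, with 34.2 and 41.8. An intron of ADARB2, which encodes a brain RNA-editing family protein, held a site at chr10:1463038-1463550 with 32.4 and 43.0. Of the 10 strongest, 5 lay in no gene, 4 in an intron and 1 in an exon of the processed pseudogene H3P28. Both control libraries put each of these sites well above the median of LNCaP-only sites.

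Few LNCaP-only sites kept a peak after CTCF siRNA. Both CTCF siRNA libraries had a peak at 68 of 5880 sites, called persistent here, or at 1.16% (Wilson 95% interval 0.913 to 1.46%), while 9.4% of all LNCaP control sites did. At sites with a peak in all 4 IMR90 control lists the share was 18.6%, a difference of -17.5 percentage points (Newcombe 95% interval -18.2 to -16.8). The siRNA libraries differed, the less deeply sequenced one having the fewer peaks, with 1.28% of LNCaP-only sites in replicate 1 and 2.70% in replicate 2, against 19.8% and 40.2% of the sites in all 4 IMR90 control lists. Persistence also followed strength. With the latter sites weighted to the strength bins of LNCaP-only sites their share was 4.18%, and the difference was -3.02 percentage points (-3.52 to -2.53). The intervals cover counting error only, since sites are not replicates.

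**Figure D2:**
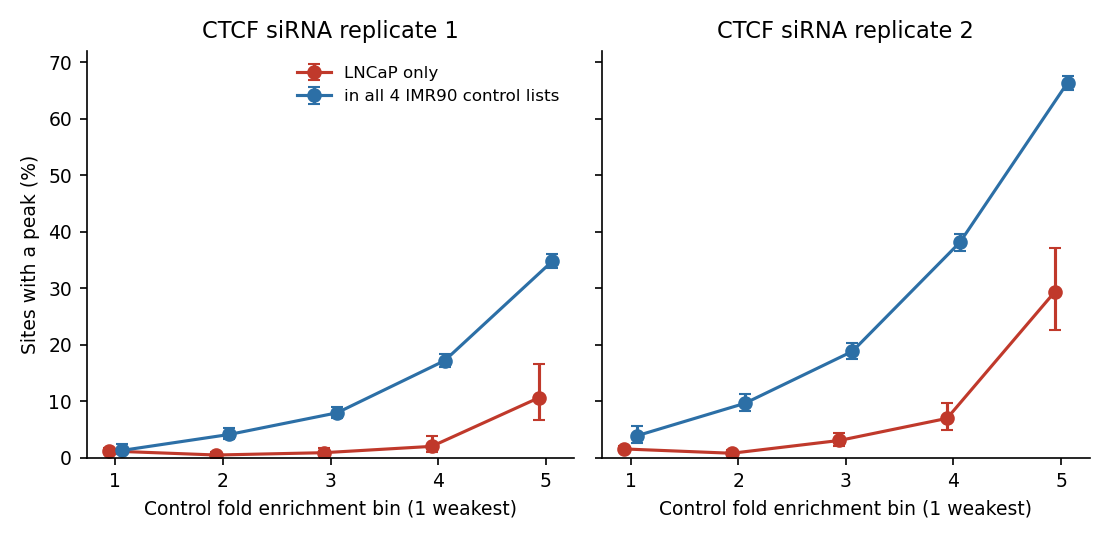
Percent of sites with a peak in each LNCaP CTCF siRNA library, by bin of control fold enrichment, for LNCaP-only sites (red) and sites in all 4 IMR90 control lists (blue). Bars are Wilson 95% intervals. Red lies below blue in every bin of both libraries, with overlapping intervals in bin 1 of replicate 1, and in bin 5 the replicate 2 shares are 29.3% and 66.4%.

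Within the strongest bin, with a mean fold enrichment of at least 21.1, 14 of 150 LNCaP-only sites (9.33%, interval 5.64 to 15.1%) were persistent, while 33.7% of the sites in all 4 IMR90 control lists were (32.4 to 35.0%). Strength was not equal within this bin, which ran to 39.5 for LNCaP-only sites and to 67.1 for the others. In the weakest bin the shares were 1.21% (0.870 to 1.69%) and 0.725% (0.310 to 1.68%), so the intervals overlapped there. In replicate 2 alone the weakest bin had 1.57% (44 of 2801) and 3.91% (27 of 690), and their Wilson intervals did not overlap. For LNCaP-only sites the share was lowest in bin 2, at 0.498%.

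Strong persistent LNCaP-only sites held the CTCF consensus, and most weak ones did not. The consensus was searched within 100 bp of the summit on both strands with up to 2 mismatches. All 14 persistent sites of the strongest bin and all 6 of the next bin held it, but only 1 of 34 in the weakest bin did. Over all LNCaP-only sites of these 3 bins, 77.3%, 70.7% and 46.9% held it. Of those 34 persistent sites, 19 lay in an H3K27ac region of both control libraries, against 1 of the 14 strongest. Over all LNCaP-only sites of the weakest and strongest bins these shares were 22.2% and 16.0%. Fold enrichments under 3 were found at 14 LNCaP-only sites, of which 11 were persistent, 6 lay within 1000000 bp of an assembly gap and none held the consensus. All 14 lay in H3K27ac regions. Read mappability at these places was not tested.

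**Figure D3:**
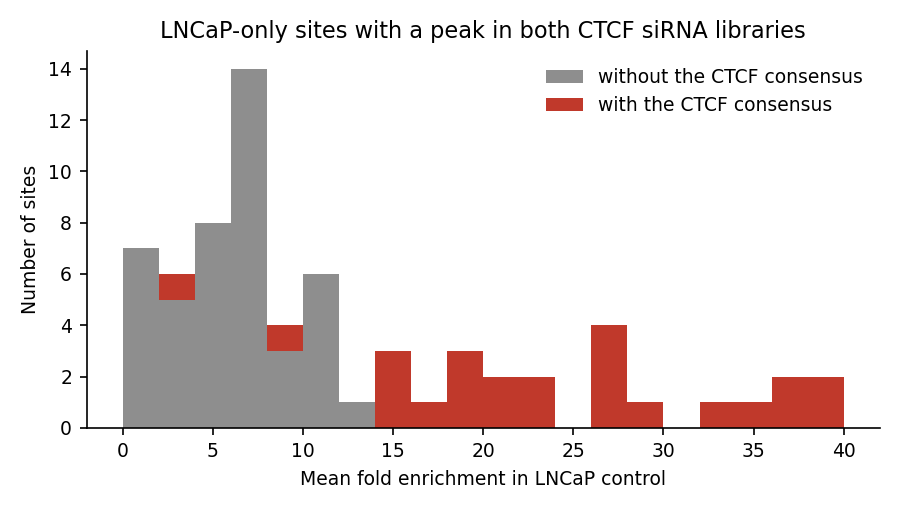
Number of persistent LNCaP-only sites, those with a peak in each of the 2 CTCF siRNA libraries, in steps of mean control fold enrichment, stacked by whether the CTCF consensus lies within 100 bp of the summit. Sites without the consensus (grey) lie at low enrichment, and those with it (red) make up all 20 in the 2 strongest bins.

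Strong persistent sites lay in several gene neighbourhoods. The site at chr6:156983068-156983512, in the pseudogene H3P28, had control fold enrichments of 37.2 and 36.9, and 12.7 and 31.7 after CTCF siRNA. A site in the lncRNA LINC01287 at chr7:153078622-153079003 had 28.4 and 37.0 in control cells and 9.39 and 13.6 after siRNA. A further site in a coding exon of GLIS3, a zinc finger transcription factor gene, at chr9:4117751-4118134 had 28.3 and 28.8, then 9.37 and 13.4. It lay 63 bp from an annotated transcript start. RBFOX1, which encodes a splicing regulator, held a site in an intron at chr16:5540409-5541008 with 28.8 and 26.1, then 10.7 and 15.9. In each of these sites both siRNA values were below both control values. Fold enrichment is not scaled between libraries, so these falls are not a measure of lost binding.

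LNCaP-only sites held the consensus less often than shared sites. It was present at 3255 sites, or 55.4% (54.1 to 56.6%), while 73.9% of all LNCaP control sites and 88.2% of the sites in all 4 IMR90 control lists held it. The difference to the latter was -32.9 percentage points (-34.2 to -31.5). It was -29.5 after weighting to the 5 strength bins of LNCaP-only sites, which leaves differences of strength within bins. With lists of equal length it was -16.1 (-18.2 to -14.0), and 73.0% of LNCaP-only sites held the consensus. In windows of the same length shifted by 1000 bp from LNCaP-only sites, 4.86% held a match. A match without mismatch was found at 3.79% of LNCaP-only sites and at 20.0% of the sites in all 4 lists. Among sites with the consensus, a CG dinucleotide at its positions 12 and 13 was present in 17.7% (16.4 to 19.0%) of LNCaP-only sites and 29.7% (28.9 to 30.5%) of sites in all 4 lists. With the same weighting the latter share was 24.5%, and the difference fell from -12.1 to -6.79 percentage points. Even in the weakest bin the consensus was found at 46.9% of LNCaP-only sites and 82.2% of the others.

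H3K27ac, which marks active enhancers and promoters, covered LNCaP-only sites slightly more often than shared ones. An H3K27ac region of both control libraries overlapped 1144 sites, or 19.5% (18.5 to 20.5%), where 15.8% of all LNCaP control sites were covered. The share at sites in all 4 IMR90 control lists was 14.8%, a difference of 4.66 percentage points (3.51 to 5.84). When all CTCF lists were cut to equal length it was -0.0166 percentage points, with an interval that included 0 (-1.73 to 1.82). It was 1.71 with control replicate 2 alone and 8.71 with control replicate 1 alone, so its size depended on the CTCF library. H3K4me3, a mark of active promoters, covered 12.7% of LNCaP-only sites (11.9 to 13.6%), 12.9% of all LNCaP control sites and 13.4% of the sites in all 4 lists, and the difference of -0.633 percentage points (-1.63 to 0.399) included 0. This difference turned with the CTCF library, at -3.62 (-4.34 to -2.89) without control replicate 1 and 7.96 (6.95 to 8.98) without control replicate 2.

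The shares of LNCaP-only sites with either mark did not separate control from CTCF siRNA libraries. H3K27ac regions covered 23.9% and 20.8% of them in the control libraries and 22.8% and 24.6% in the siRNA libraries. The groups overlapped, and the mean difference of 1.38 percentage points had a two-sided exact permutation p of 0.667, where the smallest p that 2 against 2 libraries allow is 0.333. With the replicate number as a block, the paired differences were -1.05 and 3.81 percentage points. H3K4me3 regions covered 13.4% and 17.7% in control and 14.8% and 20.4% after siRNA, with means of 15.5% and 17.6%, an exact permutation p of 0.667 and paired differences of 1.41 and 2.79 percentage points. The siRNA lists were longer, with 92200 and 96641 H3K27ac regions against 84953 and 68319 in control. H3K4me3 lists held 40352 and 58751 regions against 35807 and 47557, and the effect of list length was not tested. By site, 47 LNCaP-only sites (0.799%) lay in an H3K27ac region of both control libraries and of neither siRNA library, and 80 (1.36%) showed the opposite. At sites in all 4 IMR90 control lists these shares were 1.24% and 2.58%.

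**Figure D4:**
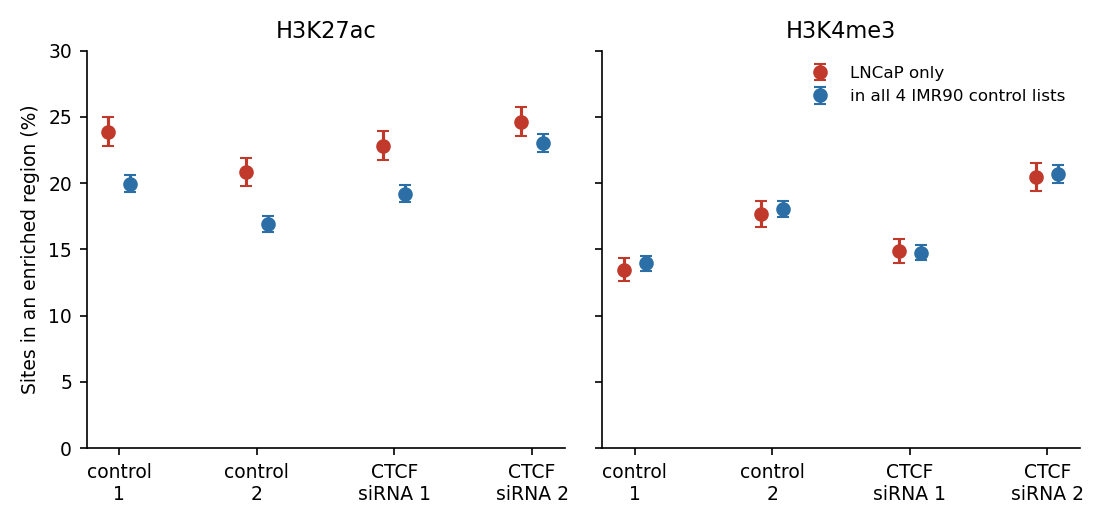
Percent of LNCaP-only sites (red) and of sites in all 4 IMR90 control lists (blue) in a region of each mark, per library, with Wilson 95% intervals. H3K27ac shares of LNCaP-only sites run from 20.8% to 24.6% and H3K4me3 shares from 13.4% to 20.4%, and control and CTCF siRNA libraries overlap for both marks.

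The marks and the consensus divided LNCaP-only sites. H3K27ac regions of both control libraries covered 708 of the 2625 sites without the consensus and 436 of the 3255 with it (13.4%), a difference of 13.6 percentage points (11.5 to 15.6). For H3K4me3 the shares were 17.8% and 8.69%, a difference of 9.06 (7.32 to 10.8). Sites in all 4 IMR90 control lists showed differences of 9.86 and 10.1 percentage points for these marks. With control replicate 2 alone the H3K27ac difference among LNCaP-only sites was 5.49, and the H3K4me3 difference 3.85. A transcript start of a protein-coding gene lay within 1000 bp of 8.20% of LNCaP-only sites, against 11.1% of all LNCaP control sites, and the median distance to such a start was 42757 bp, against 12423 bp for sites in all 4 lists. Summits lay in introns at 52.3% of LNCaP-only sites, in no gene at 39.4%, in coding exons at 2.45%, in UTRs at 2.19% and in non-coding exons at 3.67%. The shares of sites in all 4 lists were 52.6%, 36.6%, 1.73%, 3.85% and 5.20% in the same order.

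Of the 5 strongest LNCaP-only sites with both marks, 1 lay within 1000 bp of a protein-coding transcript start. A site in a UTR of TMC4, a gene for a channel-like membrane protein, at chr19:54676433-54677130 lay 14 bp from a transcript start and had control fold enrichments of 22.6 and 38.2. An intron of IGSF5, which encodes a junction adhesion protein, held a site at chr21:41160124-41160657 with 25.6 and 39.4. Both had a peak in CTCF siRNA replicate 2, with fold enrichments of 4.27 and 5.36, and none in replicate 1. The widest H3K27ac regions with an LNCaP-only site lay over GRB10, ST3GAL1, RASSF3, EHF and NFIX and spanned 209500, 130750, 96050, 54500 and 48200 bp in the library where each was wider. The order differed between libraries, since in the other control library of each they spanned 30800, 44200, 27300, 38600 and 47950 bp. The named site in each had a mean fold enrichment between 5.98 and 9.86, where the median of LNCaP-only sites was 7.81. None had a peak in a CTCF siRNA library, while 2.82% of all LNCaP-only sites had one in either library. EHF encodes an epithelial transcription factor, and its site lay 2030 bp from a transcript start.

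Near genes that mark the 2 cell types, LNCaP-only sites were counted among all LNCaP control sites. Within 50000 bp of a start of the 14 prostate luminal and androgen response genes lay 30 LNCaP control sites, of which 5 (16.7%) were LNCaP-only, and they were near TMPRSS2, SLC45A3 and FOLH1. The 12 epithelial genes had 46 sites, of which 11 (23.9%) were LNCaP-only, near 9 genes. The 14 fibroblast genes had 37 sites and 3 LNCaP-only ones (8.11%), near COL5A1 and THY1. The site counted for THY1 lay 49364 bp from it, in a non-coding exon of USP2. These shares rest on few sites, and no intervals were computed for them. The share over all sites was 18.2%. No LNCaP-only site of the 3 lists was persistent, while 3, 8 and 0 lay in an H3K27ac region of both control libraries. Over all LNCaP-only sites 1.16% were persistent and 19.5% in such a region. An intron site of SLC45A3, a prostate transporter gene, at chr1:205641247-205641925 had control fold enrichments of 14.7 and 19.7. In KRT8, which encodes an epithelial keratin, a site 91 bp from a transcript start had 15.0 and 9.31.

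LNCaP-only sites occurred next to each other along the chromosomes. Of the LNCaP control sites adjacent to an LNCaP-only site, 34.9% were LNCaP-only themselves, against 18.2% of all sites. For sites in all 4 IMR90 control lists the like shares were 50.9% and 44.7%. Runs of at least 2 consecutive LNCaP-only sites held 51.4% of LNCaP-only sites, and 142 runs of 5 or more held 988 sites (16.8%). These run shares were not compared with a random order of sites. Such neighbours were rarely close in bases. Another LNCaP-only site lay within 10000 bp of 7.64% (6.98 to 8.34%), while 31.7% of all LNCaP control sites and 22.5% of the more numerous sites in all 4 IMR90 control lists had one of their own kind so close. The LNCaP-only share was 16.3% without control replicate 1 and 3.22% with lists of equal length, and shares of kinds that differ in number were not matched for density. By chromosome, the share of sites that were LNCaP-only ranged from 69 of 574 on chromosome 22 (9.61 to 14.9%) to 110 of 404 on chromosome 21 (27.2%, 23.1 to 31.8%).

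The longest run held 14 sites over 3.09 Mb at chr7:51655344-54746872, where only the protein-coding genes POM121L12 and VSTM2A are annotated and none of the IMR90 control lists had a peak. Runs of 13 sites lay at chr3:163046527-164524316, with no protein-coding gene, and at chr18:62873790-64486847, over the cadherin genes CDH7 and CDH19. Another run of 13 at chr21:10000931-15442691 spanned 5.44 Mb across the centromere, with 1 peak in each of 3 IMR90 control lists. The median fold enrichment of the sites in these 4 runs was 9.60, 7.31, 10.9 and 8.71 in that order. None of these sites was persistent after CTCF siRNA, where the share over all LNCaP-only sites was 1.16%. The chromosome 3 and chromosome 21 runs each had 1 site with a peak in CTCF siRNA replicate 2. Within the chromosome 18 run, 2 IMR90 control lists had 1 peak each.

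The densest group lay in the variable region of the immunoglobulin heavy chain locus, at the end of the long arm of chromosome 14. This region was singled out after its values were seen. Between chr14:106405611 and chr14:107288019, the 882 kb from the first to the last annotated V segment, 53 of 66 LNCaP control sites (80.3%) were LNCaP-only, against 18.0% of sites elsewhere. The LNCaP control lists had 69 and 76 peaks there, and the IMR90 control lists 8 and 11 with the standard protocol and 5 and 3 with the low-cell protocol. With CTCF lists of equal length, 31 of 33 sites were LNCaP-only. Of the 53 sites, 47 lay within 2000 bp of a V segment, at a median distance of 105 bp over all 53.

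**Figure D5:**
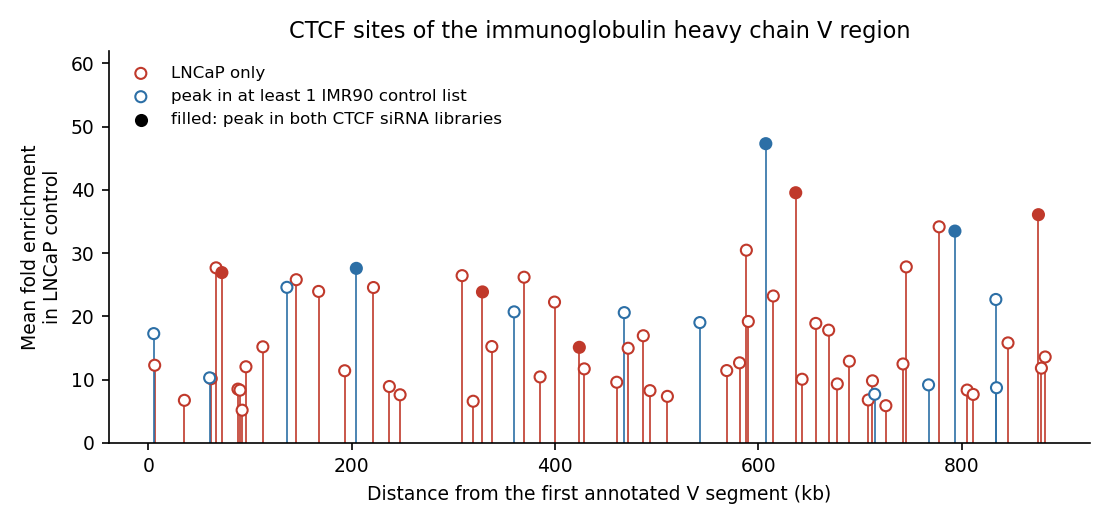
Mean control fold enrichment of the 66 LNCaP control CTCF sites of the immunoglobulin heavy chain V region, against distance from its first annotated V segment. Red sites are LNCaP-only and blue sites have a peak in at least 1 IMR90 control list, and filled points are persistent after CTCF siRNA. The 53 red sites lie along the whole 882 kb.

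These 53 sites were stronger than LNCaP-only sites elsewhere, with a median fold enrichment of 12.7 against 7.80, and they made up 15 of the 150 in the strongest bin. The consensus was present at 49 of them (92.5%), against 55.0% of LNCaP-only sites elsewhere. A CG at its positions 12 and 13 was present in 37 of the 49 (75.5%), against 16.8% elsewhere. The 13 other sites of the region, which had an IMR90 peak, were alike in this: all 13 held the consensus and 9 (69.2%) had the CG. They were stronger, with a median fold enrichment of 20.6 against 12.7 for the 53. A peak in CTCF siRNA replicate 2 was found at 76.9% of the 13 and at 22.6% of the 53. V segments are related copies, and their sites are not independent. The 49 matches had 28 different sequences, and 28 of the 49 shared theirs with another site of the region. The most common were GCTGCAGGGGGCGC, at 8 sites, and GCGGCAGGGGGCGC, at 6, of which the first was also the match of 6 LNCaP-only sites elsewhere and the second of none. The authors discarded reads that aligned to more than one place, and the effect on such copies was not tested.

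After CTCF siRNA, 5 of the 53 sites were persistent, and 7 and 12 had a peak in replicates 1 and 2. The persistent sites lay 42 bp from IGHV3-52, 25 bp from IGHV4-80, 77 bp from IGHV4-4, 639 bp from IGHV1-24 and 76 bp from IGHV4-34. At the IGHV3-52 site the siRNA fold enrichments were 6.30 and 22.1, and at the IGHV4-80 site 10.7 and 8.55, after control values of 46.5 and 25.6. H3K27ac regions of both control libraries covered 7 of the 53 (13.2%) and H3K4me3 regions 3. Of LNCaP-only sites elsewhere, 19.5% and 12.8% were covered by these marks. Without this region, 63 of the remaining LNCaP-only sites (1.08%) were persistent.

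V segments on other chromosomes gave unequal counts. Within 2000 bp of a V segment, 47 of 56 sites on chromosome 14 were LNCaP-only, and 4 of 4 on chromosome 15 and 4 of 4 on chromosome 16, where heavy chain segments have relocated copies. On chromosome 2, with the kappa light chain locus, 2 of 4 were LNCaP-only, and on chromosome 22, with the lambda light chain locus, 0 of 26 were. The chromosome 15 sites included one at chr15:22466988-22467459 with control fold enrichments of 35.3 and 34.9, and 10.7 and 16.4 after CTCF siRNA. By number of LNCaP-only sites, the next windows of 1 Mb began at chr5:140000001, which holds the protocadherin clusters, with 17 of 56, and at chr1:2000001, with 15 of 28. The order by share differed, since the window at chr6:162000001 had 11 of 11.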

How the data were processed

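The members and gene lists were chosen with earlier results of these data known. Peak and region lists of 20 libraries were used, grouped by GEO's labels. Reads of the standard libraries had been mapped by the authors with Bowtie (hg19), and ambiguous reads dropped, before MACS2 called CTCF peaks in each library. For the low-cell libraries they mapped with BWA and removed duplicates by molecular identifiers. PeakRanger gave the histone regions, whose deposited score was not used here. In the deposited CTCF lists every peak carries a fold enrichment (a ratio) and p-values and q-values as −log10, and no replicates were pooled. The largest q-value in a deposited list was 0.0499. The lists carry no read depth. Library depths stated in the study's methods were not used in any test.

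From these lists, sites were built as described in the report, with an overlap of at least 1 bp throughout. A site's fold enrichment is the highest peak value per library, averaged over the 2 control libraries. Summits are those of the stronger control peak. Genes are from GENCODE release 44 on hg19 coordinates, and coordinates count from 1. Named sites were the 10 strongest LNCaP-only sites, the 10 strongest persistent ones, the 5 strongest with both marks, those of the 5 widest H3K27ac regions, the 5 longest runs (1 of which is not reported here), up to 3 sites per gene list and 3 sites on each side of the rule. Some are given as counts or ranges, and the immunoglobulin region and 1 Mb windows were added after their values were seen. Shares carry Wilson and their differences Newcombe 95% intervals. Marks after siRNA were compared by two-sided exact permutation tests over libraries. Alternatives are listed in the closing section. Site building, motif search and intervals were tested on simulated data. Python 3.11.15, numpy 2.4.6, pandas 2.3.3, pysam 0.24.0 and matplotlib 3.10.9 were used.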

Additional observations from a re-analysis of the deposited data

Results flagged for a closer look

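A few LNCaP-only sites had peaks in libraries that the rule did not use. The 2 standard IMR90 CTCF siRNA libraries had a peak at 0.408% and 0.476% of the 5880 LNCaP-only sites. At sites in all 4 IMR90 control lists these shares were 89.9% and 88.1%. Of the LNCaP-only sites, 5 had a peak in both standard IMR90 CTCF siRNA libraries although no IMR90 control list had one, at mean LNCaP control fold enrichments of 18.2, 17.2, 9.15, 6.47 and 3.80. The nearest IMR90 control peak lay between 7733 and 161004 bp from them, and 2 of the 5 were persistent in LNCaP. Why these peaks were called only after siRNA was not tested.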

How the results depend on the processing

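Of 137 values recomputed under an alternative, 97 kept their call, which for a difference means its direction and whether its interval excluded 0 and not its size, 34 moved, 3 turned in direction and 3 kept direction with an interval that newly excluded 0. The difference in persistent share stayed negative, from -17.7 to -3.02 percentage points, or -67.7 when the comparison was with sites in all 8 IMR90 lists, which include the IMR90 CTCF siRNA lists. The consensus difference stayed negative, from -48.1 to -16.1. With lists cut to the length of the shortest (18545 control and 1921 CTCF siRNA peaks), 1862 sites were LNCaP-only, of which 15.0% lay in H3K27ac regions, 11.7% in H3K4me3 regions, 73.0% held the consensus and 3.22% had another within 10000 bp, and the H3K27ac difference was -0.0166 percentage points. Leaving out 1 library at a time gave 8836 to 14541 LNCaP-only sites, 0.695 to 2.70% persistent, 16.3 to 23.9% in H3K27ac regions, 9.59 to 21.4% in H3K4me3 regions, 39.5 to 50.5% with the consensus, 11.2 to 16.3% within 10000 bp of another, and an H3K4me3 difference of -3.62 (without control replicate 1) to 7.96 (without control replicate 2). The H3K4me3 intervals excluded 0 in opposite directions. That difference was also 1.71 (0.765 to 2.69) with the 2 standard IMR90 control lists, -1.16 when an IMR90 peak within 500 bp counted and -8.11 with all 8 IMR90 lists. With the 2 standard lists, 14.1% lay in H3K4me3 regions and 8.38% within 10000 bp of another. Merged regions of at least 2 of 4 libraries held 25.1% for H3K27ac and 18.4% for H3K4me3, and a peak in either CTCF siRNA library was found at 2.82%. At most 1 mismatch left 23.8% with the consensus and 50 bp on each side 49.4%, and distances of 5000 and 50000 bp gave 4.47% and 28.7%. Except where the alternative itself sets the change, the cause was not tested. Leaving out the immunoglobulin region and weighting the mark and consensus differences by strength were chosen after seeing the data. With the replicate block, the mean paired change of the H3K27ac share was 1.38 percentage points (SD 3.44). For H3K4me3 the pairs changed by 1.41 and 2.79 (SD 0.974). Pairing cannot change a mean, so these values, counted among the 97, were the same by construction, and no test with the block was run. Binding below the calling threshold was not detectable here.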
